A study of Arabidopsis thaliana with 6 samples.

Results

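The 6 cytochrome b6f genes of the plastid genome, petA, petB, petD, petG, petL and petN, were followed in Arabidopsis thaliana seedlings, in a yaf9a yaf9b double mutant and in the wild type (WT). They were taken by symbol from the probe sets whose 1 listed gene lies on the plastid chromosome of the RefSeq table. Each gene had 1 probe set on the Affymetrix ATH1 array. The group held 6 of the 69 plastid-encoded genes and of the 13356 genes that the annotation listed alone for a probe set. Both groups were whole seedlings of the Col-0 background, 20 days old, grown untreated on agar plates in short days (8 h light, 16 h dark, 22 °C) and harvested at ZT8, when the lights went off. The mutant carried mutations in both YAF9A and YAF9B, which encode YEATS-domain subunits of chromatin complexes, and its alleles were not stated in the labels. Each genotype had 3 arrays, each from a biological replicate of about 250 mg of pooled seedlings, and this number limits the precision of every value below.

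The cytochrome b6f complex sits in the thylakoid membrane between the photosystems. It takes electrons from plastoquinol and passes them to plastocyanin, and it moves protons into the thylakoid lumen as it does so. Of its large subunits, cytochrome f and cytochrome b6 carry the hemes, and its small subunits are single-span membrane proteins. In plants most of its subunits are encoded in the plastid, and the Rieske protein PETC and the small subunit PETM are encoded in the nucleus. Plastid genes are largely transcribed together with their neighbours and the long transcripts are then cut and trimmed, so 1 gene's level depends on both steps. Labelling started from the RNA's 3' ends (3' IVT kit), and plastid transcripts mostly lack stable poly(A) tails. The share of each plastid transcript that was labelled is therefore not known, and levels are compared here between genotypes for the same probe set only.

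The mean of each of the 6 genes lay lower in the mutant, and none of the 6 changes passed the threshold, a limma adjusted p under 0.05 over all 22746 probe sets. The log2 changes, mutant minus WT, ran from -0.79 for petG to -0.31 for petB, with a median of -0.43, which is a 1.35-fold lower signal. Over all probe sets the median change was 0.0067, and 48.9% of them had a lower mean in the mutant. Among all probe sets 6.61% were called lower and 6.52% higher in the limma fit, against 0 and 0 of the 6 genes. At an unadjusted limma p under 0.05, 3 of the 6 were lower (petB, petD and petG) and 0 higher, against 14.4% and 13.3% of all probe sets. The genotypes did not overlap for these same 3 genes, and 15.9% of all probe sets had every mutant array below every WT array.

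petA encodes cytochrome f, the heme protein that hands electrons to plastocyanin. Its log2 signal was 10.56, 10.92 and 10.85 in mutant arrays 1, 2 and 3, against 11.26, 11.35 and 10.76 in WT arrays 1, 2 and 3. WT array 3 lay within the mutant range, so the genotypes overlapped. The mean was 10.78 ± 0.19 in the mutant and 11.12 ± 0.32 in WT (SD, n = 3 arrays each), a log2 change of -0.35 ± 0.17 (SE; limma adjusted p = 0.232). The 95% interval of this change reached from -0.74 to 0.04.

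petB encodes cytochrome b6, which holds the hemes of the electron path across the membrane. Its log2 signal was 12.35, 12.44 and 12.36 in the mutant arrays, against 12.81, 12.75 and 12.53 in the WT arrays. Every mutant array lay below every WT array, and the 3 mutant arrays lay within 0.09 of each other. The mean was 12.38 ± 0.05 in the mutant and 12.70 ± 0.15 in WT (SD, n = 3 each). The log2 change was -0.31 ± 0.10 (SE), a 1.24-fold lower signal with a 95% interval from 1.06-fold to 1.45-fold. Its limma adjusted p of 0.0765 was the lowest of the 6 genes, although its change was the smallest.

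petD encodes subunit IV, which together with cytochrome b6 forms the part of the complex related to cytochrome b of mitochondria. Its log2 signal was 3.73, 3.78 and 4.03 in the mutant arrays, against 4.1, 4.72 and 4.18 in the WT arrays. The genotypes did not overlap, although mutant array 3 came close to WT array 1. The log2 change was -0.49 ± 0.17 (SE; limma adjusted p = 0.104), with means of 3.85 ± 0.16 in the mutant and 4.33 ± 0.34 in WT (SD, n = 3 each). Without WT array 2, the highest of the 6 arrays for this gene, the change was -0.29 (adjusted p = 0.206). petB and petD each contain an intron, and which exons or introns the probes cover was not analysed here.

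petG encodes a small subunit that the complex needs to accumulate in tobacco. Its log2 signal was 3.48, 3.34 and 3.47 in the mutant arrays, against 3.99, 5.05 and 3.62 in the WT arrays. The mutant arrays were close together and below all WT arrays, whereas the WT arrays spread over 1.43, with array 2 high. The log2 change of -0.79 ± 0.31 (SE) was the largest of the 6 and did not pass (limma adjusted p = 0.145), with means of 3.43 ± 0.08 in the mutant and 4.22 ± 0.74 in WT (SD, n = 3 each). Without WT array 2 it was -0.38 (adjusted p = 0.152). The mean signal of petG lay at percentile 23.0 of all probe sets, the lowest of the 6 genes.

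petL encodes a small subunit at the edge of the complex, which in tobacco is dispensable for its function but contributes to its stability. Its log2 signal was 4.81, 4.43 and 4.23 in the mutant arrays, against 5.88, 5.82 and 4.03 in the WT arrays. WT arrays 1 and 2 were above all mutant arrays, and WT array 3 was below all of them. The means were 4.49 ± 0.29 in the mutant and 5.24 ± 1.05 in WT (SD, n = 3 each), and the log2 change was -0.75 ± 0.45 (SE; limma adjusted p = 0.334). Its 95% interval, from -1.79 to 0.29, was the widest of the 6. Without WT array 3 the change was -1.36 with an adjusted p of 0.00985, and without WT array 1 it was -0.44 with an adjusted p of 0.639.

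petN encodes another small subunit, required for an intact complex in tobacco. Its log2 signal was 6.82, 6.48 and 6.84 in the mutant arrays, against 6.60, 7.54 and 7.11 in the WT arrays. WT array 1 lay within the mutant range, and WT arrays 2 and 3 lay above it. The means were 6.71 ± 0.20 in the mutant and 7.08 ± 0.47 in WT (SD, n = 3 each), with a log2 change of -0.37 ± 0.22 (SE; limma adjusted p = 0.334). Without WT array 1 the change was -0.61 and without WT array 2 it was -0.14, with adjusted p of 0.0731 and 0.721.

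**Figure D1:**
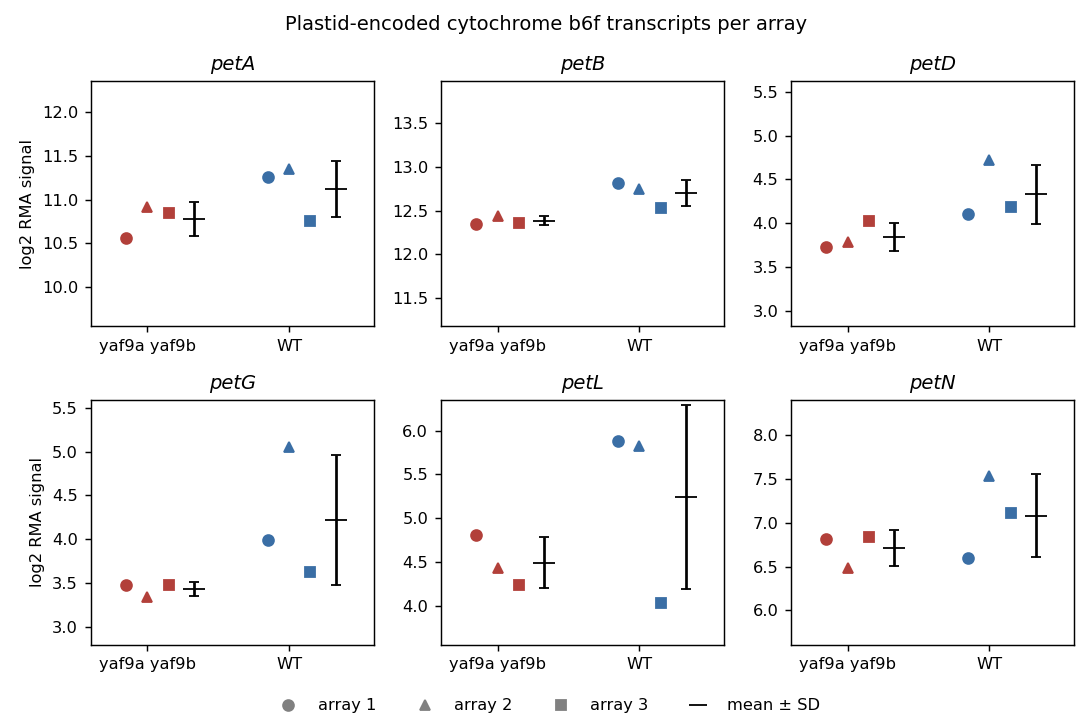
Log2 RMA signal (vertical axes, each spanning the same number of log2 units) of the 6 plastid-encoded cytochrome b6f genes in each array, with yaf9a yaf9b in red on the left and WT in blue on the right; symbols give the array number and black bars the mean ± SD of 3 arrays. The genotypes are separate for petB, petD and petG and overlap for petA, petL and petN, and the WT arrays are spread more widely than the mutant arrays in each panel.

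Differences between the changes of the 6 genes were not resolved from the spread between arrays. The changes of petA, petB and petD ran from -0.49 to -0.31, and those of petG, petL and petN from -0.79 to -0.37. Among the 15 pairs of the 6 genes, the difference between 2 changes was at most 0.48 (petB against petG, SE 0.40). In 0 of the 15 pairs were the within-array differences separate between the genotypes, against 26.6% of all pairs of plastid-encoded genes. The 15 pairs share genes and are not independent. The smallest two-sided exact permutation p among the pairs was 0.3, in a design that cannot go below 0.1.

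The spread lay mostly among the WT arrays. The SD was larger in WT than in the mutant for 6 of the 6 genes, for 44 of the 63 other plastid-encoded genes and for 55.4% of all probe sets. The median SD of the 6 genes was 0.18 in the mutant and 0.40 in WT. WT array 2 had the highest WT value for 4 of the 6 genes (petA, petD, petG and petN) and for 44 of the 63 others. WT array 3 had the lowest WT value for petA, petB, petG and petL and for 42 of the 63 others. After each gene was centred on its mean over the 6 arrays, the 6 genes averaged -0.24, -0.30 and -0.23 in mutant arrays 1, 2 and 3, against 0.24, 0.68 and -0.16 in WT arrays 1, 2 and 3. The other 63 averaged -0.38, -0.19 and -0.20 in the mutant arrays, against 0.24, 0.47 and 0.06 in the WT arrays. In both sets WT array 2 was thus the highest and WT array 3 the lowest of its genotype. The array medians over all probe sets lay between 5.99 and 6.06.

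Single WT arrays therefore moved the results. Without WT array 3, petA (log2 change -0.53, limma adjusted p = 0.0488), petB (-0.40, adjusted p = 0.0389) and petL were called lower, 3 of the 6 genes, where 5.4% of all probe sets were. Without any other single array 0 of the 6 were called, and the lowest limma adjusted p was 0.0731. Every change kept its sign in each of these fits, and the median of the 6 ran from -0.55 to -0.29.

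**Figure D2:**
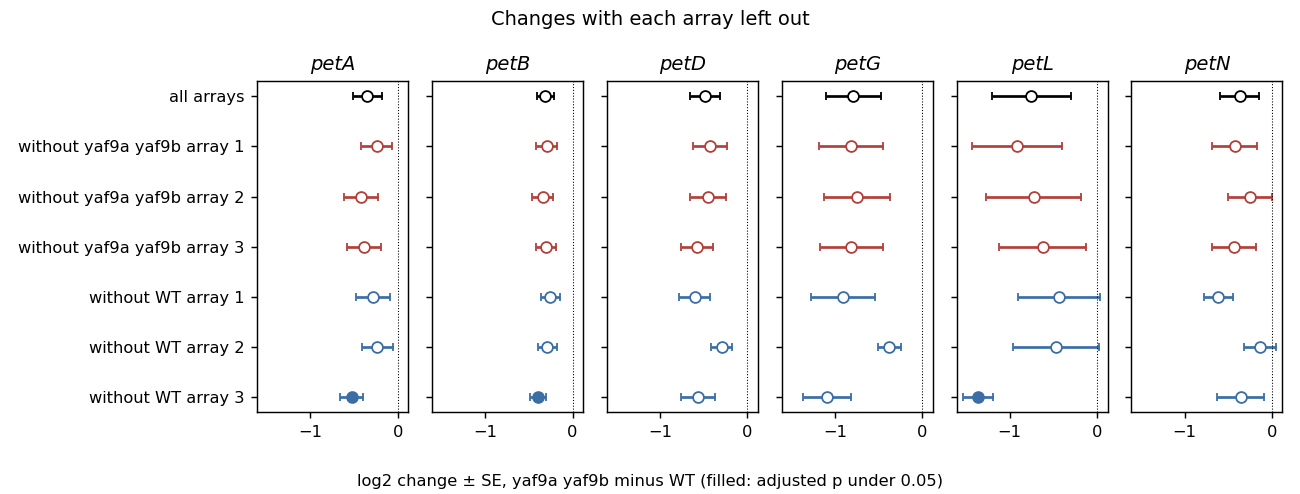
Log2 change ± SE, yaf9a yaf9b minus WT (horizontal axis), of each of the 6 genes with all arrays (top, black) and with each mutant array (red) or WT array (blue) left out; filled symbols have a limma adjusted p under 0.05. The filled symbols are those of petA, petB and petL without WT array 3, and petG moves closest to 0 without WT array 2.

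Transcription units were compared next, since petA, petB, petD, petG and petL are known to be transcribed together with other plastid genes. petA closes a unit with psaI, ycf4 and cemA; petB and petD close one with psbB, psbT and psbH; petL and petG open one with psaJ, rpl33 and rps18. These partners were chosen after values were seen, and the counts are a description. In the unit of petA, psaI, a photosystem I subunit, fell, with a log2 change of -1.11 (SE 0.14; adjusted p = 0.00356, limma). cemA, which encodes an envelope membrane protein and lies next to petA, had -0.78 and fell as well (SE 0.18; adjusted p = 0.0298, limma). ycf4, a photosystem I assembly factor, had a change of -0.79 ± 0.22 (adjusted p = 0.0527). All 3 had separate genotypes, whereas petA did not. Every mutant array lay below every WT array for 42 of the 63 other plastid-encoded genes, these 3 among them, and for 15.9% of all probe sets. The change of petA was 0.43 ± 0.05 closer to 0 than that of cemA and 0.77 ± 0.10 closer than that of psaI (difference of log2 changes ± SE). For both pairs the within-array difference separated the genotypes, with a two-sided exact permutation p of 0.1, the smallest that 3 against 3 arrays allow. For petA against ycf4 it overlapped. petA was the brightest of this unit, at percentile 97.3 of mean signal over all probe sets, against 52.1 (ycf4) to 88.2 (psaI) for the partners. Whether signal level shaped the sizes of these changes was not tested.

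In the unit of petB and petD, 0 of the 3 partners passed in the limma fit, and 1 had an unadjusted p under 0.05. This was psbB, the CP47 antenna protein of photosystem II, with a log2 change of -0.70 ± 0.23 (SE; adjusted p = 0.0851). The photosystem II genes psbT and psbH had -0.70 ± 0.41 and -0.20 ± 0.24. petB, at -0.31, and petD, at -0.49, lay between these values. The within-array difference was separate for petB against psbB (0.39 ± 0.28, exact permutation p = 0.1) and overlapped for the other 5 pairs of a member and a partner. petB was bright, at percentile 99.5 of mean signal over all probe sets, and psbB lay at 58.4.

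In the unit of petL and petG the order was the other way. psaJ, a photosystem I subunit, had a log2 change of -0.16 ± 0.15, and the ribosomal protein genes rpl33 and rps18 had 0.01 ± 0.12 and -0.08 ± 0.16, with 0 of 3 past the threshold and 0 at an unadjusted limma p under 0.05. The changes of petG and petL were farther from 0 than those of all 3 partners. petG and petL were dim, at percentiles 23.0 and 37.8 of mean signal over all probe sets, while the 3 partners lay at 89.9 to 95.5. Without WT array 2 the change of petG was -0.38. For petG the difference was -0.80 ± 0.43 against rpl33 and -0.71 ± 0.31 against rps18, both with separate genotypes (exact permutation p = 0.1 each). For petG against psaJ, and for petL against each of the 3, the within-array differences overlapped. Over all 3 units, 5 of 15 pairs of a member and a partner were separate (33.3%), against 624 of the 2346 pairs that the 69 plastid-encoded genes can form (26.6%). The pairs share genes and are not independent, so nothing particular to the units is read from this count.

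**Figure D3:**
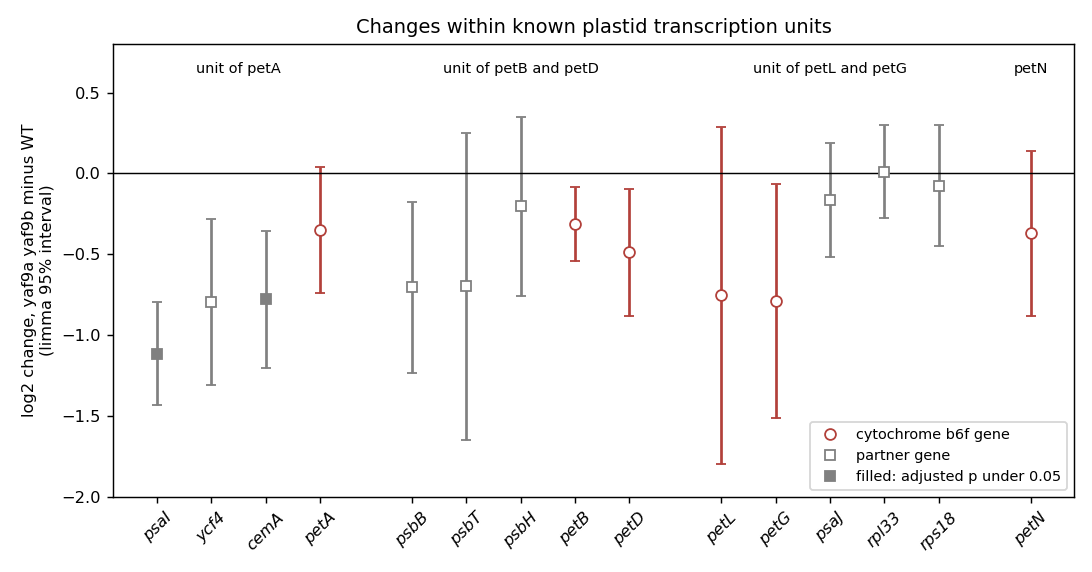
Log2 change, yaf9a yaf9b minus WT, with its limma 95% interval (vertical axis) for the 6 cytochrome b6f genes (red circles) and the 9 partner genes (grey squares), in gene order within each unit; filled symbols have an adjusted p under 0.05. petA lies closer to 0 than psaI, ycf4 and cemA, while petL and petG lie farther from 0 than psaJ, rpl33 and rps18. The signals of petL and petG are low, and those of psaJ, rpl33 and rps18 are high. The signal of petA is higher than those of psaI, ycf4 and cemA.

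The nearest protein-coding genes on either side of the 6, irrespective of strand, included 5 outside these units. psbJ beyond petA had a log2 change of -0.31 ± 0.17, psbE before petL -0.31 ± 0.13 and rpoA beyond petD -0.21 ± 0.10. Beside petN, rpoB had -0.25 ± 0.12 and psbM -0.23 ± 0.15. None of these 5 passed (limma adjusted p 0.148 to 0.386; psbE alone had an unadjusted p under 0.05), and each change was closer to 0 than that of the member it adjoins.

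The 63 others had a median log2 change of -0.44, against -0.43 for the 6, and 20 of the 63 were called lower and 0 higher. At an unadjusted limma p under 0.05, 40 of the 63 were lower, and 42 had separate genotypes. Ranked from the largest fall over all 69, petG was at 15, petL at 18, petD at 30, petN at 42, petA at 46 and petB at 49. The difference between each of the 6 and the other plastid-encoded genes was tested by centring every array on the mean of those 63. On that scale the changes were 0.16 for petA, 0.20 for petB, 0.02 for petD, -0.28 for petG, -0.24 for petL and 0.14 for petN. None passed (limma adjusted p 0.249 to 0.904, unadjusted p 0.218 to 0.895), while 66.6% of all probe sets were called higher on it and 0.787% lower. Centring puts the spread of the 63 between arrays into every other probe set, and limma shares variance over all probe sets. The test can therefore miss small differences of the 6. By product, the genes called lower were 3 of 6 for ATP synthase (median change -0.79), 3 of 10 for NDH (-0.58), 3 of 15 for photosystem II (-0.40) and 1 of 5 for photosystem I (-0.35). They were 6 of 15 for ribosomal proteins (-0.30), 0 of 4 for RNA polymerase (-0.34) and 4 of 8 for the remaining genes (-0.60). At an unadjusted limma p under 0.05 the counts lower were 4, 10, 8, 3, 7, 1 and 7 in the same order. Whether these counts differ from the 0 of 6 for cytochrome b6f was not tested.

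**Figure D4:**
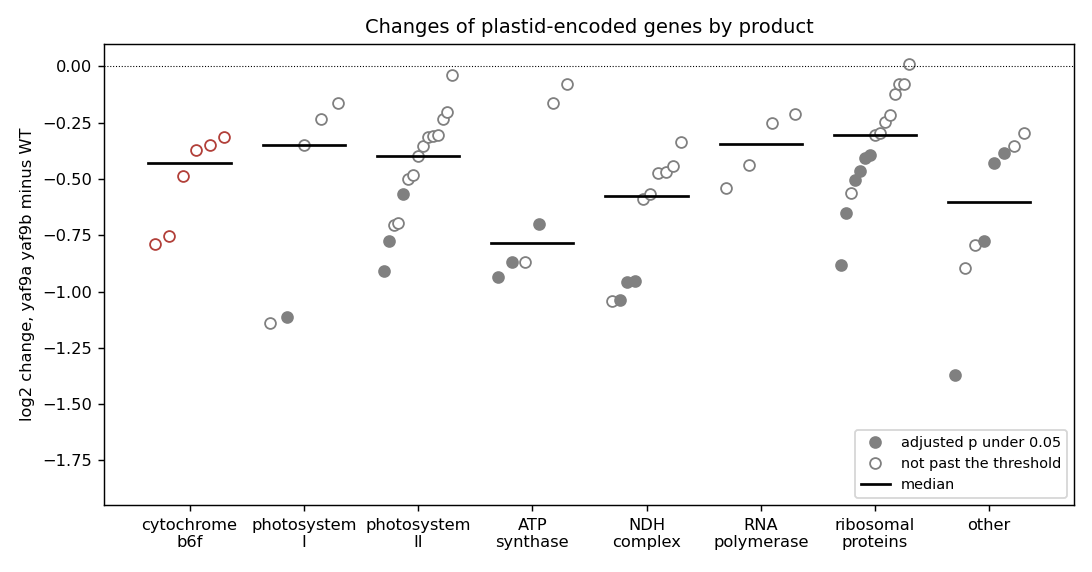
Log2 change, yaf9a yaf9b minus WT (vertical axis), of 69 plastid-encoded genes grouped by product, with each group's median as a black line and filled circles for a limma adjusted p under 0.05. The 6 cytochrome b6f genes (red, all open) lie between -0.79 and -0.31, within the range of the other groups.

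Few nuclear genes of the same pathway were listed alone for a probe set in the annotation, in which 8730 of 22746 probe sets listed no gene. Genes not counted as measured, here and below, may have a probe set among those. Of the 2 nuclear subunits only PETM was measured, at 13.27, 13.29 and 13.34 in the mutant arrays, against 13.34, 13.25 and 13.11 in the WT arrays. Its genotypes overlapped, and its log2 change was 0.07 ± 0.09 (limma adjusted p = 0.7), with a 95% interval from -0.14 to 0.27. The mean signal of PETM was near the top of the array, at percentile 99.8 of all probe sets. Of 9 listed assembly factors 3 were measured and 0 passed in the limma fit, with 2 at an unadjusted p under 0.05. CCS1, which acts in attaching heme to c-type cytochromes such as cytochrome f, had -0.45 ± 0.14 (adjusted p = 0.0736). CcdA, a thylakoid protein that carries reducing power to the same process, had -0.23 ± 0.09 (adjusted p = 0.157). CCB3, which acts in attaching heme to cytochrome b6, had 0.13 ± 0.13 (adjusted p = 0.557). The genotypes were separate for CCS1 and CcdA. Of all probe sets, 14.4% were lower at an unadjusted limma p under 0.05, and 15.9% had every mutant array below every WT array. With 3 of 9 factors measured, nothing is read from these counts.

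PGRL1B, a protein of cyclic electron flow around photosystem I, was the 1 measured gene of 10 listed electron transfer partners. It lay at 8.36, 8.39 and 8.63 in the mutant arrays, against 9.04, 8.98 and 8.84 in the WT arrays, and fell, with a log2 change of -0.49 ± 0.11 (SE; adjusted p = 0.0215, limma). AT5G42310, the Arabidopsis relative of maize CRP1, which in maize acts on petB, petD and petA RNA, had a log2 change of -0.13 ± 0.11 (adjusted p = 0.524). The organellar RNA polymerase gene AT5G15700, the 1 measured of 8 nuclear genes for plastid transcription, had 0.02 ± 0.14 (adjusted p = 0.95).

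Seedlings hold shoots and roots, and in such bulk samples fewer cells of a type and less RNA per cell cannot be told apart. Of 36 leaf markers, nuclear genes of photosystems, antennae, ATP synthase and Rubisco, 8 were measured. Their median log2 change was 0.0017, against -0.43 for the 6 plastid-encoded cytochrome b6f genes. The antenna gene LHCB4.2 fell, with a change of -0.33 ± 0.09 (SE; adjusted p = 0.0434, limma), and the other 7 changes did not pass, with PSBY at 0.07 ± 0.08. The 8 leaf markers lay between 12.16 and 13.95 on the log2 scale over all arrays. Their mean signals were at percentile 99.3 (PSBW) or above of all probe sets, against 23.0 (petG) to 99.5 (petB) for the 6. Whether changes are dampened at such high signals was not tested, so the medians do not show an unchanged share of leaf cells. Of 9 root markers 3 were measured and 0 passed, also at an unadjusted limma p under 0.05, with PYK10 at -0.15 ± 0.15 and EXPA18 at 0.07 ± 0.19. YAF9A and YAF9B had 0 probe sets listed under their loci, so those transcripts gave no check of the genotypes.

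The genes whose 6 array values were most like the mean profile of the cytochrome b6f genes were sought among probe sets listing 1 gene. Of 13513 such probe sets, 63 were those of the other plastid-encoded genes, so most of the choice was nuclear. Likeness was the Euclidean distance, in log2 units over the 6 arrays, between values centred on each gene's mean. The 5 nearest were AT3G53270 (distance 0.208), ALN (0.21), which encodes allantoinase of purine breakdown, ndhF (0.227) of the plastid NDH complex, AT5G46850 (0.233) and AT1G50950 (0.239). Each had its highest value in WT array 2, and their log2 changes were -0.43, -0.49, -0.47, -0.40 and -0.48, none past the threshold. The 6 genes themselves lay at distances of 0.404 for petD to 1.16 for petL from their mean profile. The 5 were picked as the nearest of all those probe sets and the 6 were not, so the distances cannot be compared. The 5 genes shared arrays and normalization with the members, and the likeness is a description.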

How the data were processed

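RNA from 6 seedling samples, 3 yaf9a yaf9b and 3 WT, (500 ng each) was measured on ATH1 arrays, per the labels' protocols. The deposited values are log2 signals per probe set, made with RMA and affy per the submitters' processing notes. Versions, build and scan batches were not stated there. RMA equalises array distributions, which hides any shift common to most transcripts.

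After 64 control probe sets were left out of 22810, limma 3.58.1 in R 4.3.3 (lmFit, eBayes, two-sided, no filter, no block) was run on all 22746 with Benjamini-Hochberg adjustment. The limma fit was tested on simulated data, and the other steps were not. Pairs of genes were compared by within-array differences with exact permutation over arrays. Genes were named from GEO's platform annotation and the RefSeq table of TAIR10.1: 13513 probe sets listed 1 gene, 503 several and 8730 none here.

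The members and lists were chosen with earlier results of these data known. Named were all 6 members, neighbouring genes, all measured genes of 4 pathway lists, 2 or fewer genes of each other list by smallest p, and the 5 most alike genes. Neighbours were taken without regard to strand, which the table lacks, and transcription unit partners were added after values were seen. Alternatives were other scalings, variance models, filters, a replicate block and leaving out each array.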

Additional observations from a re-analysis of the deposited data

How the results depend on the processing

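Of 81 comparisons of a single gene's change with an alternative, 71 kept both direction and side of the threshold. Since 0 of the 6 genes passed in the main fit, keeping the side here means staying uncalled. petB passed after cyclic loess (log2 change -0.38, limma adjusted p = 0.0277), with a trended, robust variance model (-0.31, 0.0364) and with array weights (-0.32, 0.0386), so that 1 of the 6 genes was called lower in each, where 5.98%, 6.73% and 10.1% of all probe sets were; the cause was not tested. Centring on the other plastid-encoded genes, which by construction sets the change against theirs, turned the sign of petA (0.16), petB (0.20), petD (0.024), petN (0.14) and the median of the 6 (0.083). Leaving out 1 array gave 0 to 3 genes called lower, with changes from -0.53 to -0.23 for petA, -0.40 to -0.26 for petB and -1.36 to -0.44 for petL; the 3 calls came without WT array 3. No setting called a gene higher. The median of the 6 ran from -0.45 to -0.40 over the other alternatives that kept all arrays and all 6 genes. The filter on the 40th percentile of mean signal removed petD, petG and petL, and left the other 3 with a median of -0.35 and petB with an adjusted p of 0.0584. With a replicate block the median was -0.43, 0 genes were called and petB had an adjusted p of 0.136. Same-numbered arrays had deviations from their genotype means that correlated at -0.21, 0.01 and -0.32, which gave no sign of pairing, and 0 arrays correlated best with their own number. The values carry no detection call, and the 3 genes under that percentile are the dimmest of the 6.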
